A study of Caenorhabditis elegans with 2 samples.

Results

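The 37 genes described here run the C. elegans cell division cycle and the start of DNA replication. They were taken by name from a fixed list and are 37 of the 19973 protein-coding genes annotated on the nuclear chromosomes. All 37 names matched 1 annotated gene each. They were sorted by role into 9 G1/S regulators, 15 mitotic regulators, 5 spindle checkpoint genes and 8 replication licensing genes. The data are chromatin immunoprecipitation and sequencing (ChIP-seq) peak lists for eGFP-tagged ZTF-11, in 2 libraries that the labels call biological replicates. Both came from whole mixed-stage embryos, males and females pooled, of strain OP236. It carries the integrated transgene wgIs236 and the unc-119(ed3) III allele. There is no second genotype, treatment or time. The labels do not say which driver the transgene uses, and whole embryos do not tell which cells a peak comes from. The labels point to a possible control experiment, which was not analysed here.

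ZTF-11 is a zinc finger transcription factor of the Myt1 family, which acts in neurogenesis, where dividing precursors become neurons. It is reported to work with MuvB, the core of the DREAM complex that represses cell cycle genes in quiescent cells. In each cycle, cyclin D and cyclin E with their kinases carry the cell through G1 into S phase, and Cdk inhibitors hold it back. Cdc6 and Cdt1 load the Mcm helicase on origins in G1. Cyclin A, cyclin B and Cdk1 drive mitosis, and the spindle checkpoint delays anaphase until the kinetochores are attached.

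The authors deposited a relaxed list of 30000 peaks for each replicate, a relaxed list of 12024 peaks called on both replicates together (the pooled list) and a list of 721 thresholded peaks. The relaxed lists include background by design. The thresholded list was cut from the pooled list for reproducibility between replicates, and its lowest signal was 33.9. A place in it does not mean that a single peak was alike in both libraries. The peak of 1 thresholded cdc-25.2 summit ranked 225 in replicate 1 and 12028 in replicate 2. Signal is the authors' value for each peak relative to a control. Its scale is not stated, so signals and ranks are compared only within a list. The read depth is unknown. A summit was counted for a gene's promoter window when it lay from 1000 bp upstream to 200 bp downstream of any annotated 5′ end of the gene. It was counted for the gene body when it lay elsewhere between the gene's ends. With 1 group of 2 libraries and a list of genes chosen with earlier results known, no test was made. Counts of members are set beside the share of all protein-coding genes counted in the same way. All coordinates are ce11.

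A thresholded ZTF-11 summit lay in the promoter window of 3 of the 37 genes, cki-1, cdc-25.2 and bub-1 (8.11% of the members; 2.66% of all protein-coding genes). It lay in the gene body of 3, cye-1, cyd-1 and cdc-25.2 (8.11% of the members; 0.631% of all genes). In window or body together, 5 of the 37 genes had 8 thresholded summits (13.5% of the members; 3.22% of all genes). The 5 genes are a G1 cyclin, an S phase cyclin, a Cdk inhibitor, a Cdk-activating phosphatase and a checkpoint kinase. No licensing gene had a thresholded summit (0 of 8; 3.22% of all genes). Of the 8 summits, 3 lay upstream of their gene and 5 in its introns, and none lay in an exon of that gene. The intronic cye-1 summit lay inside a tRNA gene.

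The 6 thresholded summits of cki-1, cyd-1 and cdc-25.2 are shown with 75 bases on each side of the summit, because the counts above rest on them. They are read from the ce11 sequence on the plus strand, which is the coding strand of all 3 genes. Capitals mark AAGTT, the core of Myt1 family sites, and TTTGAA, the cell cycle homology region bound by the LIN-54 subunit of MuvB, on either strand. The cki-1 sites are chrII:7810954-7811104 (summit 211 bp upstream) and chrII:7810253-7810403 (912 bp upstream). The cyd-1 site is chrII:12991270-12991420, and the cdc-25.2 sites are chrV:1570811-1570961, chrV:1576700-1576850 and chrV:1578688-1578838. None of these windows overlaps an annotated exon.
cki-1 proximal: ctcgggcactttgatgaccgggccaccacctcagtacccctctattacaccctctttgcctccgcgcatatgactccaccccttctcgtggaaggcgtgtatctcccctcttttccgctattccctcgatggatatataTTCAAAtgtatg
cki-1 distal: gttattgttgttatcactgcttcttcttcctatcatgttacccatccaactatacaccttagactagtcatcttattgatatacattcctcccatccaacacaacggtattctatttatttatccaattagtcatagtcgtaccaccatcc
cyd-1 intron: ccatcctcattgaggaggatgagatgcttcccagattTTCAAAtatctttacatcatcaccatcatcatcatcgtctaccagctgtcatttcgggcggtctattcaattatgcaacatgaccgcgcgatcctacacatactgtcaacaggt
cdc-25.2 first intronic site: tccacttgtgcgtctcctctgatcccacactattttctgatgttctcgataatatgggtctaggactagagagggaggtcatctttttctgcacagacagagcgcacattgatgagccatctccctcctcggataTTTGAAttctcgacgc
cdc-25.2 middle intronic site: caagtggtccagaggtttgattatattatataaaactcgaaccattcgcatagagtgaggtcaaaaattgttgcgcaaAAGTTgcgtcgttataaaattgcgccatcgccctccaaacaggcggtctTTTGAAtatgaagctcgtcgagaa
cdc-25.2 last intronic site: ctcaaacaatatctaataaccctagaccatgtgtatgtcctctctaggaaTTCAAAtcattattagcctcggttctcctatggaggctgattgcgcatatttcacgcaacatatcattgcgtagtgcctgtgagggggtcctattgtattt

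Over all 8 thresholded summits of the members, the bub-1 and cye-1 sites included, windows of 151 bases held AAGTT at 1 (12.5%; 14.3% of the 698 thresholded nuclear summits). They held TTTGAA at 6 (75%; 21.1% of the 698). An E2F-like pattern, TTTNNCGC, was present at 4 (50%; 14.9% of the 698), the proximal cki-1 site, the middle and last cdc-25.2 sites and the bub-1 site. These are matches of letters on either strand, 3 of the 8 windows belong to 1 gene, and a match does not show a site in use. The distal cki-1 window and the cye-1 window held none of the 3 patterns. The median share of G and C bases was 49.7% over the 698 windows. Among the members' windows it was 52.3% at the proximal cki-1 site, 50.3% at cye-1 and 36.4% to 47.7% at the others. The part of base composition in the matches was not tested.

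The G1/S group held the strongest pooled signal among the 37 members, at the intronic cye-1 summit described below. The Cdk inhibitor gene cki-1, whose product arrests cells in G1, had both of its thresholded summits upstream of its only annotated 5′ end, in the 16918 bp that separate it from its neighbour glr-4. The proximal summit had a pooled signal of 51.3 (rank 297 of 12024). Its peak had a signal of 27.3 in replicate 1 (rank 347) and 26.1 in replicate 2 (rank 280), with summits 1 bp and 10 bp from the pooled one. The distal summit had a pooled signal of 34.9 (rank 671), close to the lowest thresholded signal, with 16.8 in replicate 1 (rank 1213) and 13.4 in replicate 2 (rank 1385). No other protein-coding gene's window covered either summit. Among the 37 genes, cki-1 was the only one with a promoter summit among the 721 strongest peaks of both replicates. A further, weaker summit lay in its coding sequence (signal 22.1, rank 1942), and its replicate 2 peak ranked 29867 of 30000.

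**Figure D1:**
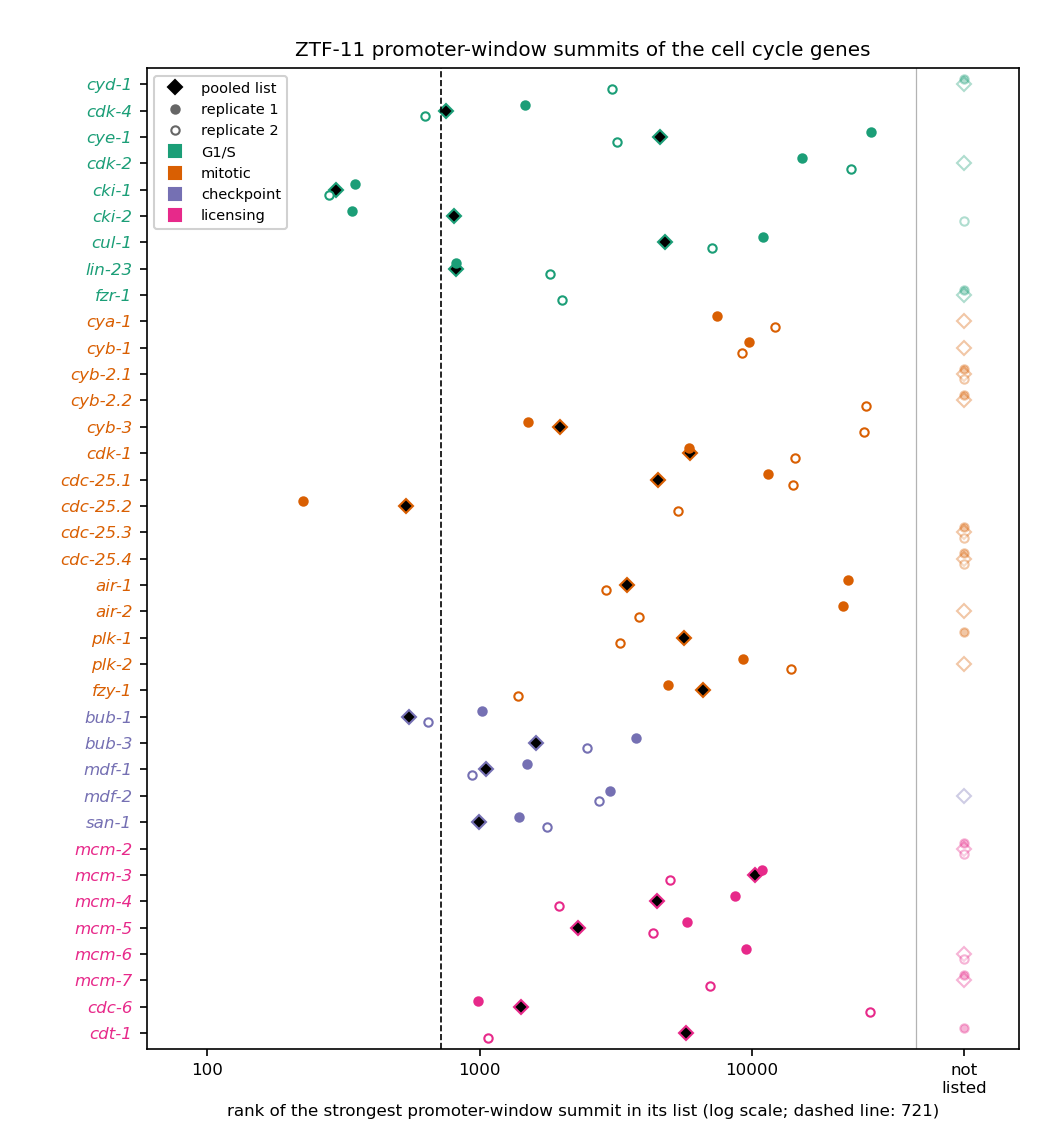
Rank of the strongest promoter-window summit of each of the 37 genes in the pooled list (black diamonds), replicate 1 (filled circles) and replicate 2 (open circles), on a log scale, with genes coloured by role and the dashed line at rank 721. Each list's strongest summit is taken separately, so the 3 marks of a gene can be different summits; pale marks at the right are genes with no summit in that list's window. The marks of cki-1 lie left of the line in all 3 lists, the pooled mark of bub-1 lies just left of it and those of san-1, mdf-1 and bub-3 lie right of it, and 3 genes (cyb-2.1, cdc-25.4 and mcm-2) have no summit in window or body in any list.

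The cki-1 paralogue cki-2, the next gene downstream at a distance of 4394 bp, differed between the libraries. Its strongest window summit, 799 bp upstream, had a pooled signal of 32.5 (rank 803), just under the thresholded list. The peak ranked 339 in replicate 1 with a signal of 27.6, and no replicate 2 peak overlapped it. That summit lay 1 bp from the non-coding RNA gene T05A6.19.

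The cyclin E gene cye-1, needed for entry into S phase, had the highest signal of any member, 79.2 (rank 103), at chrI:6781648-6782003 in an intron. The peak ranked high in both libraries, at 159 in replicate 1 (signal 36.6) and 84 in replicate 2 (signal 41.0). Its summit lay inside a 72 bp tRNA gene, C37A2.t1, on the same strand as cye-1. The upstream region of cye-1 held only a weak summit 459 bp from the start (signal 16.6, rank 4581), which lay nearer to the divergent gene pqn-21, 189 bp from its 5′ end. The only other tRNA gene contained in a member, Y69A2AR.t2 in mdf-2, also held a pooled summit (signal 30.5, rank 925). Over the genome 10.6% of the 612 nuclear tRNA genes had a thresholded summit within 250 bp, and 37.4% had a pooled one. Near-identical tRNA copies can share reads, and the authors' handling of such reads is not stated in the labels or files.

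The cyclin D gene cyd-1 and its kinase partner gene cdk-4 act earliest in G1. The cyd-1 summit was at chrII:12991167-12991522, in an intron 10754 bp into the 12527 bp gene, with a pooled signal of 37.3 (rank 586). Replicate 1 gave 15.9 (rank 1476) and replicate 2 gave 16.1 (rank 866), so neither library alone placed it among its 721 strongest peaks. Weaker pooled summits lay at 3 other intronic positions of cyd-1, with signals of 17.6, 16.3 and 13.9, and its window had no pooled summit. At cdk-4, the single X-linked member, the summit 289 bp upstream had a signal of 33.4 (rank 750), the nearest miss among the members. Its peak ranked 1464 in replicate 1 and 627 in replicate 2 and also fell in the window of the divergent gene F18H3.1. For cdk-2, the partner of cyclin E, the pooled list had no summit in window or body.

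The 3 ubiquitin ligase genes of the group, which turn over cell cycle regulators, had no thresholded summit (3.22% of all genes had one). The F-box gene lin-23 had a summit 929 bp upstream with a signal of 32.2 (rank 817), and it ranked 816 in replicate 1 and 1816 in replicate 2. The cullin gene cul-1 had a weak summit 46 bp upstream (signal 16.4, rank 4769). The anaphase-promoting complex activator gene fzr-1 had none in the pooled list. In all, 4 of the 9 G1/S genes had a promoter summit among the 1442 strongest pooled peaks, a list of double the thresholded length (44.4%; 4.92% of all genes).

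**Figure D2:**
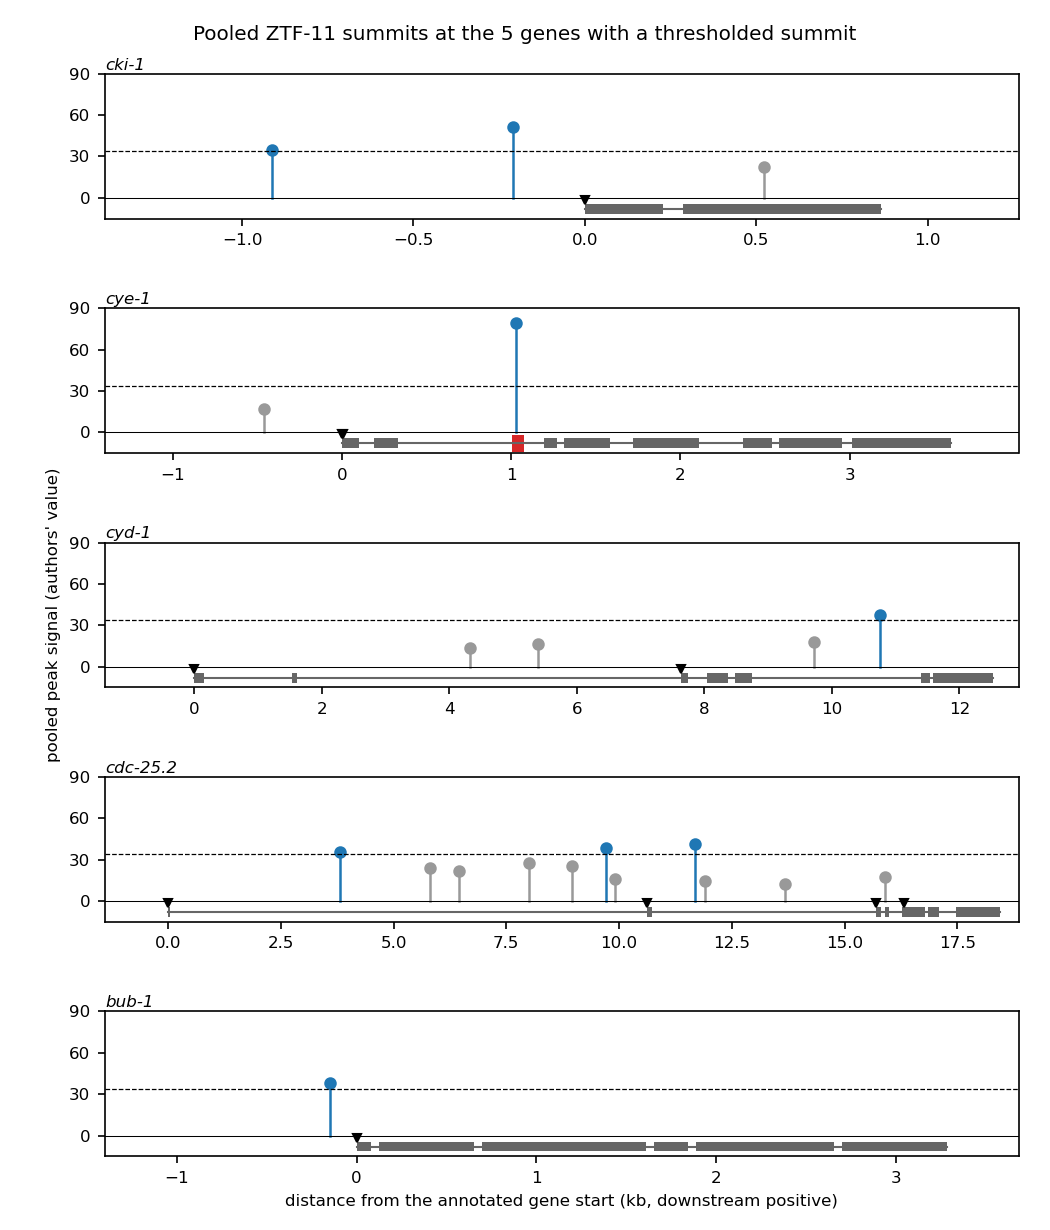
Pooled summits (stems, height the authors' signal) at the 5 genes with a thresholded summit, against distance from the annotated gene start in kb. Blue stems are thresholded and grey ones are not, the dashed line is the lowest thresholded signal, grey boxes are exons of any transcript, triangles are annotated 5′ ends and the red box is the tRNA gene. The thresholded summits of cki-1 and bub-1 lie upstream, that of cye-1 on the tRNA gene, and those of cyd-1 and cdc-25.2 in introns.

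Among the 15 mitotic genes cdc-25.2 alone had thresholded summits (6.67%; 3.22% of all genes), all in introns. With 15 genes, a count of 1 cannot be told from that share. The gene cdc-25.2 encodes a phosphatase that activates Cdks, and it is the longest member at 18457 bp with 4 annotated 5′ ends. It held 11 pooled summits, of which 3 were thresholded. The first, 3810 bp into the gene, had a pooled signal of 35.5 (rank 641), with rank 6326 in replicate 1 and 414 in replicate 2. The middle one, 9699 bp in, fell in a promoter window because it lies 916 bp upstream of an internal 5′ end. Its pooled signal was 38.5 (rank 536), with rank 225 in replicate 1 and 12028 in replicate 2. The last, 11687 bp in, had 41.2 (rank 472), with ranks of 573 and 1436. The libraries thus ordered the first and middle summits oppositely. The 8 weaker summits of the gene had pooled signals of 12.4 to 27.4, and no pooled summit lay in the window of its outermost 5′ end.

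Length moved with the body summits. The median length of the 126 protein-coding genes with a thresholded body summit was 8142 bp, against 2881 bp over the 37 members and 2027 bp over all protein-coding genes. The part of length in the body counts was not tested.

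The other mitotic genes had weak summits or none. The cyclin B3 gene cyb-3 had the strongest window summit of these, 122 bp upstream (signal 22.0, rank 1971), with rank 1506 in replicate 1 and 25818 in replicate 2. The Aurora A gene air-1 followed with 18.1 (rank 3482) at a summit 194 bp upstream that lay 22 bp inside its divergent neighbour cogc-6. Lower signals of 14.9 to 16.7 were listed for cdc-25.1, plk-1 (a Polo kinase gene), cdk-1 and fzy-1, which encodes the Cdc20 activator of the anaphase-promoting complex. At air-1 and plk-1 no replicate 1 peak overlapped the window summit, and each fzy-1 window summit had a peak in a single replicate. The pooled list had no window summit for the cyclin genes cya-1, cyb-1, cyb-2.1 and cyb-2.2, for cdc-25.3 and cdc-25.4, for the Aurora B gene air-2 or for plk-2. Of these 8, only cdc-25.3 had a body summit (signal 14.7). A gene that is not listed had no peak above the end of its list, at a signal of 12.3 in the pooled list, which does not show that the site is free of ZTF-11.

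The pooled list had a window summit for 4 of the 5 spindle checkpoint genes (80%; 22.4% of all genes). It had a body summit for the remaining gene, mdf-2 (20%; 18.6% of all genes). The kinase gene bub-1 was inside the thresholded limit, with a summit 150 bp upstream at chrI:7251613-7251968 and a signal of 38.2 (rank 548). Its peak had a signal of 17.8 in each replicate (ranks 1021 and 647), with summits 6 bp and 19 bp from the pooled one. The window of the divergent gene lin-61, which encodes a chromatin-binding MBT repeat protein, also covered that summit, at 509 bp upstream.

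The checkpoint genes with a window summit outside it were san-1, which encodes a Mad3 homologue (signal 29.3, rank 992, 115 bp upstream), mdf-1, which encodes Mad1 (28.4, rank 1056, 178 bp upstream), and bub-3 (23.5, rank 1612, 103 bp upstream). Replicate 1 ranked the peaks of san-1, mdf-1 and bub-3 at 1388, 1490 and 3759, and replicate 2 at 1760, 933 and 2474. The upstream summits of these 4 genes, bub-1 included, thus lay within 178 bp of the start, with all but mdf-1 sharing the summit with a divergent gene. At mdf-2, which encodes Mad2, the summit with a signal of 30.5 lay inside the tRNA gene described above, which lies in an intron of most mdf-2 transcripts and in the 3′ UTR of the remaining transcript. The overlapping peak ranked 351 in replicate 1, and 3426 in replicate 2 with its summit 194 bp from the pooled one. Another pooled summit of mdf-2 (signal 20.8) lay 177 bp from the tRNA gene and overlapped the same replicate peaks. The replicate 2 summit lay 20 bp from this pooled summit, nearer than to the one in the tRNA gene. Each replicate also listed a weak window summit of mdf-2. It lay 65 bp downstream of a 5′ end in replicate 1 (rank 3006) and 70 bp upstream of one in replicate 2 (rank 2748). The pooled list holds no window summit of mdf-2. Of the 5 genes, 3 (60%) had a promoter summit among the 1442 strongest pooled peaks, against 4.92% of all genes. Both replicates' relaxed lists had a window summit for all 5, not always at the same place, against 24.1% of all genes.

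None of the 8 licensing genes reached the thresholded signal in window or body, against 3.22% of all genes. With 8 genes, a count of 0 cannot be told from that share. The loader gene cdc-6 led with 24.8 (rank 1415), at a summit 506 bp upstream that lay in a coding exon of acin-1, 127 bp from its 5′ end. The libraries differed there, with rank 985 in replicate 1 and 27012 in replicate 2. Among the helicase genes mcm-5 had the strongest window summit, 167 bp upstream with a signal of 20.8 (rank 2300) and ranks of 5783 and 4310. Weaker window summits were listed for mcm-4 (16.8, 94 bp upstream), cdt-1 (15.6, 145 bp downstream in coding sequence) and mcm-3 (13.0, 752 bp upstream and nearer to C25D7.15). No replicate 1 peak overlapped the mcm-3 summit. The pooled list had no window summit for mcm-2, mcm-6 or mcm-7. Of the 8 genes, 1 (12.5%) had one among the 1442 strongest peaks, against 4.92% of all genes.

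**Figure D3:**
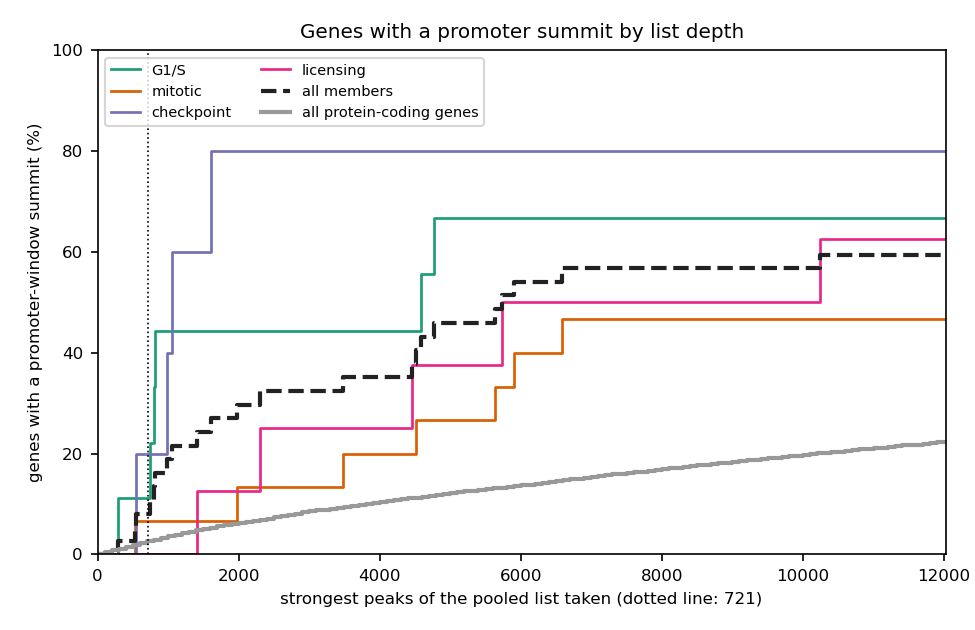
Share of genes with a promoter-window summit (vertical axis, percent) among the strongest peaks of the pooled list, as the number of peaks taken grows (horizontal axis; dotted line at 721), for each role, for all 37 members (dashed) and for all protein-coding genes (grey). At the end of the list the checkpoint genes stand at 80%, the G1/S genes at 66.7%, the licensing genes at 62.5%, the mitotic genes at 46.7%, all members at 59.5% and all protein-coding genes at 22.4%.

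Weak signal was widespread in the list. Of the 37 genes, 22 (59.5%) had a pooled window summit, against 22.4% of all protein-coding genes, and 11 (29.7%) had a pooled body summit, against 18.6%. Another 11 had no pooled summit in window or body. In the relaxed lists, which reach far into background, 27 members (73%) had a window summit in replicate 1, against 41.6% of all genes, and 31 (83.8%) in replicate 2, against 42% of all genes. Both replicates listed one for 25 members (67.6%), against 24.1% of all genes. The summit need not be the same in both lists, and at air-1 and plk-2 it was not. Since the groups hold 5 to 15 genes, a difference of 1 gene moves a group's share by 6.67 to 20 percentage points, and the order of the groups was not tested.

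The replicates placed different members among their 721 strongest peaks. Replicate 1 had window summits for cki-1, cki-2 and cdc-25.2 (8.11% of the members; 2.51% of all genes), and replicate 2 for cdk-4, cki-1 and bub-1 (8.11% of the members; 2.33% of all genes). With gene bodies included each replicate had 5 members, against 3.16% of all genes in replicate 1 and 3% in replicate 2. The genes cye-1, cki-1 and cdc-25.2 were in both sets of 5, with mdf-2 and cki-2 added in replicate 1 and cdk-4 and bub-1 in replicate 2. Of the 51 pooled summits of the members, 37 (72.5%) had an overlapping peak in both replicates, 9 in replicate 1 only and 5 in replicate 2 only. Over all 11998 pooled nuclear summits 58.8% had one in both.

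**Figure D4:**
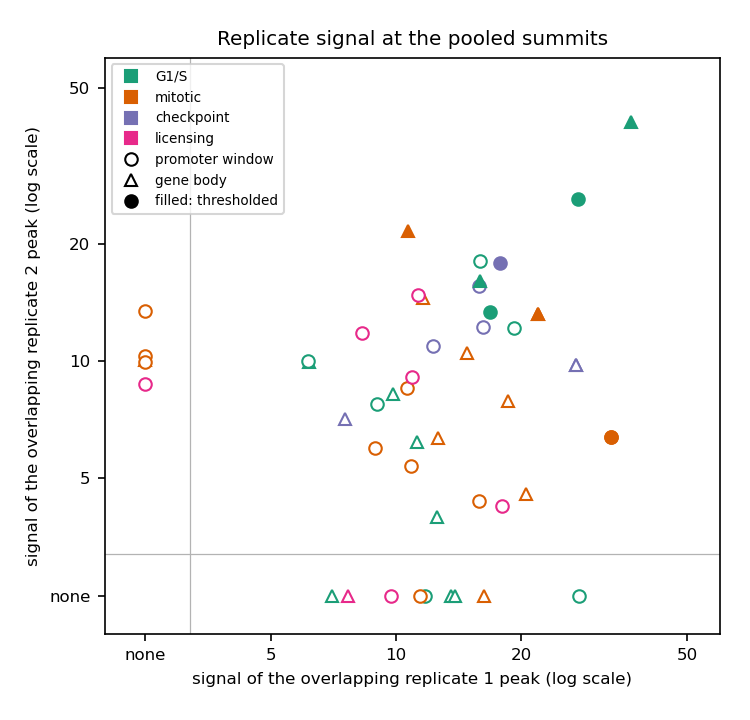
Signal of the overlapping replicate 1 peak (horizontal, log scale) and replicate 2 peak (vertical, log scale) at each of the 51 pooled summits of the members, coloured by role, with circles for promoter windows, triangles for gene bodies and filled marks for thresholded summits. Marks at "none" had no overlapping peak in that replicate. The intronic cye-1 summit is at the upper right, and the middle cdc-25.2 summit lies low at the right with 32.9 in replicate 1 and 6.40 in replicate 2; where 2 pooled summits overlap the same replicate peaks, their marks coincide.

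Of 28 pooled window summits 24 were upstream of the nearest 5′ end of the member, 12 of them within 250 bp, with a median position 201 bp upstream. The window reaches 1000 bp upstream and only 200 bp downstream, so a majority upstream follows largely from its shape. The positions were not compared with those of all genes. Shared upstream regions limit the assignment to the members: 27 of the 37 genes have a divergent protein-coding neighbour upstream, 11 of the 28 summits also fell in the window of another gene, and 5 were nearer to that gene's 5′ end. These counts were not made over all genes, so they mark a limit and not a trait of the members. Upstream space differed between the roles. The median distance to the next protein-coding gene upstream was 2420 bp for the G1/S genes, 819 bp for the mitotic, 433 bp for the checkpoint and 552 bp for the licensing genes, against 937 bp over all protein-coding genes. Its part in the group counts was not tested.

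Promoter sequence was not used in the choice of the genes. In the 300 bases from 250 before to 50 after the gene start, the E2F-like pattern TTTNNCGC was present in 8 of 8 licensing genes, 4 of 5 checkpoint genes, 4 of 9 G1/S genes and 5 of 15 mitotic genes. Over all members that is 56.8%, against 18.8% of all protein-coding genes. In the 300 bases centred on the strongest pooled window summit, for the genes that have one, the gap was smaller, with 10 of 22 members (45.45%) against 1136 of 4481 genes (25.35%). E2F factors are known activators and repressors of replication genes in animals. The match nearest to the start is shown with its flanks (30 bases, coding strand, ce11, match in capitals) for 5 of the licensing genes. On the minus strand are mcm-2 (chrII:12006797-12006826), mcm-3 (chrV:15059725-15059754) and mcm-5 (chrIII:4291409-4291438), and on the plus strand are mcm-6 (chrIII:9794236-9794265) and mcm-7 (chrV:4347099-4347128).
mcm-2: aaacgcgccatTTTACCGCatttctttttt
mcm-3: acggagcgagcGCGCGAAAccttgctgttt
mcm-5: aatcgcatcgtTTTACCGCattctgtttta
mcm-6: tttctcgtcgtTTTCCCGCattctcattgt
mcm-7: caagagcagctTTTTTCGCgattttttcag

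The mcm-3 match is on the other strand. The mcm-5 match began 161 bp before the start, with its middle 10 bp from the pooled summit of mcm-5. At the other 4 licensing genes with a pooled window summit, the distance from the match to the summit was 1 bp for mcm-4, 113 bp for cdt-1, 263 bp for cdc-6 and 612 bp for mcm-3. The mcm-2, mcm-6 and mcm-7 windows had the pattern and no pooled summit. The other patterns differed less from the genome. TTTGAA was in 75.7% of the members' promoters, against 62.5% of all promoters. AAGTT was in 45.9%, against 69.1%, and in only 1 of the 9 G1/S promoters, that of fzr-1. The B box pattern of tRNA genes was in none of the members' promoters and in 0.165% of all promoters.

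**Figure D5:**
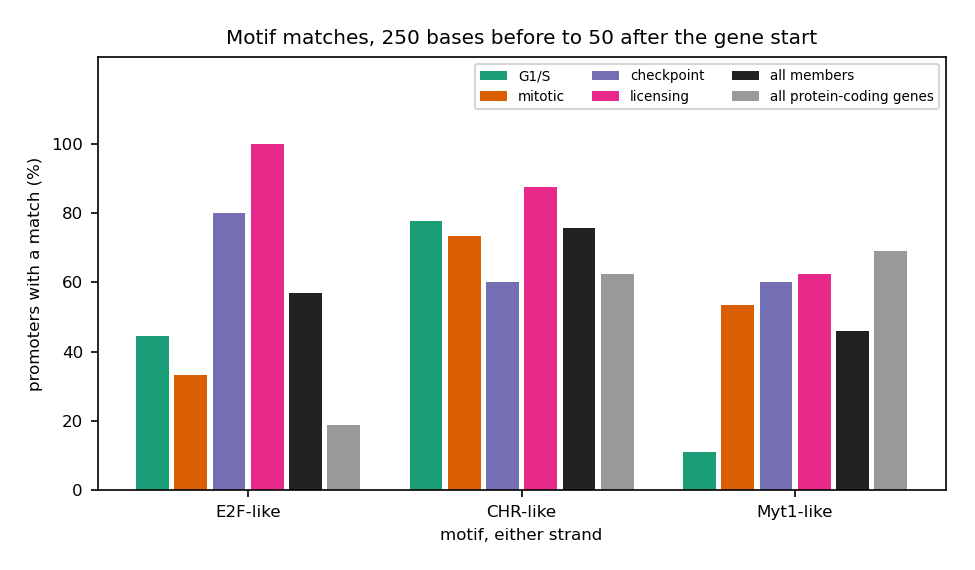
Share of promoters (percent, bars from 0) with at least 1 match on either strand to the E2F-like pattern TTTNNCGC, the cell cycle homology pattern TTTGAA and the Myt1 core AAGTT, by role, for all 37 members (black) and all protein-coding genes (grey). The E2F-like bar of the licensing genes reaches 100% beside 18.8% for all genes.

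Genes elsewhere in the cell division machinery, and 11 other cyclin and kinase genes that do not all act in it, were counted from a further list. Of its 124 names, 120 matched. A thresholded window summit was present at 6 (5%, against 2.66% of all genes). These were the cohesin loader gene scc-2 (signal 71.5, 182 bp upstream), the replication clamp loader gene rfc-4 (69.8, 158 bp), the centriole gene sas-5 (67.4, 73 bp), the transcription elongation kinase gene cdk-9 (55.7, 142 bp), the CLASP gene cls-2 (52.5, 968 bp) and the kinetochore gene knl-3 (46.8, 409 bp). All but scc-2 shared the summit with the window of another gene, among them eef-1A.1, a translation elongation factor gene, at rfc-4. The anaphase-promoting complex, cullin ligase, chromosomal passenger, Wee kinase and damage checkpoint sets had no thresholded window summit. These sets hold 3 to 11 genes each, too few to tell a count of 0 from the 2.66% share of all genes. A thresholded body summit was present at 2 of the 120, the condensin gene mix-1 and the damage checkpoint gene hpr-9 (1.67%, against 0.631% of all genes). Pooled window summits were present at 56 of the 120 genes, 46.7%, against 22.4% of all genes.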

How the data were processed

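Peak lists of eGFP-ZTF-11 ChIP-seq from 2 replicates were used as deposited by the authors, on ce11. The authors called relaxed lists on each library and on both together, every time against a control, and thresholded them by irreproducible discovery rate, per the deposited file listing. The signal value of each peak is the authors' own. Aligner, peak caller and depth: not given in the sources used here, so no counting interval could be given. The ce10 lists were not used.

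Summits were placed on the Ensembl release 115 annotation of WBcel235, the same sequence as ce11, and every peak end fell inside its chromosome. Python 3.11.15 and numpy 2.4.6 were used, and the assignment of summits was tested on simulated data. Promoter sequence was read from the RefSeq WBcel235 genome. The members, lists and patterns were chosen with earlier results of these data known. Named genes are all members, genes sharing or nearest to their summits, and genes of the further list with a thresholded window summit. The 2 with a body summit only were named after their values were seen, as were neighbours of weaker summits. Alternatives were stronger peaks, the strongest peaks of either replicate or of the pooled list, other windows, the nearest 5′ end only and any overlap of the peak.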

Additional observations from a re-analysis of the deposited data

How the results depend on the processing

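The count of 3 members with a thresholded summit in the promoter window was 1 with peaks at or above the median signal (46.4; 1.32% of all genes) and 9 with the 1442 strongest pooled peaks (4.92%). It was 2 in a window of 500 bp to 100 bp (1.96% of all genes), and 3 in a window of 2000 bp to 500 bp (3.53%), with the nearest 5′ end only (1.93%) and with any overlap of the peak (2.87%). Without either replicate, taking the strongest peaks of the remaining one, it was 3 to 3, and 2 of the 3 genes were shared each time. Body counts of 3 became 1 with the stronger peaks (0.31% of all genes), 4 with the 1442 strongest (1.41%), and 2 to 3 without a replicate (0.711% in replicate 1 and 0.726% in replicate 2). Window or body counts of 5 became 2 with the stronger peaks (1.61% of all genes) and 12 with the 1442 strongest (6.13%), alternatives added after the data were seen. By role, in the promoter window, the 1442 strongest peaks gave 4 G1/S, 1 mitotic, 3 checkpoint and 1 licensing gene. The stronger peaks gave 0 mitotic and 0 checkpoint genes. The narrower window gave 0 mitotic genes. Without a replicate the G1/S count was 2 to 2, the mitotic count 0 to 1 and the checkpoint count 0 to 1, with the cdc-25.2 window called in replicate 1 only and the bub-1 window in replicate 2 only. The further list had 21 of 120 genes with the 1442 strongest peaks (17.5%, against 4.92% of all genes). With the nearest 5′ end only it had 4 of 120 (3.33%, against 1.93% of all genes). No paired analysis was possible because there is 1 group. Causes of these shifts were not tested, and without depth a missing peak does not show that a site is unoccupied.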
